A study of Homo sapiens with 24 samples.

Results

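The 9 core beta cell identity transcription factors PDX1, NKX6-1, NKX2-2, MAFA, NEUROD1, PAX6, ISL1, FOXA2 and RFX6 were examined for trimethylation of lysine 4 on histone H3 (H3K4me3). They are 9 of 19702 protein-coding genes in GENCODE 44. Each gene was linked to every H3K4me3 region that came within 2 kb of the start of one of its protein-coding transcripts. The region with the highest mean signal stood for the gene. With this rule 8 of the 9 genes had a region, MAFA being the exception among the regions used here, compared with 14586 of all protein-coding genes (74.0%).

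The regions came from MINT-ChIP, a multiplexed chromatin immunoprecipitation in which barcoded chromatin of several samples is pooled before the antibody step. The cells were EndoC-βH3, a single immortalized human beta cell line of fetal pancreatic origin (genotype label WT), with 500000 cells per sample. The control group held 4 non-senescent samples, which still express the immortalizing genes, hTERT and the SV40 Large T-antigen. The senescent group held 4 samples treated for 3 weeks with 4-hydroxytamoxifen, which lets CreER excise both of these genes. The value used was the authors' mean normalized count of a region, which pools both groups. It carries no value per sample, so depth per sample is unknown, no error can be given and no difference was tested. The senescent and non-senescent states are therefore not compared here, and the 16 samples of H3K27me3 and H3K9me3 are not analysed here.

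H3K4me3 marks the nucleosomes around active and poised promoters, most often as a narrow peak at the transcription start. At genes that define a cell's identity the mark can spread over the gene body as a broad domain. Several of the 9 factors bind regulatory DNA of one another or of the insulin gene, and loss of any of several of them in mice disturbs beta cell formation or function. PDX1, NKX6-1, NKX2-2 and ISL1 are homeodomain proteins, PAX6 carries a paired domain and a homeodomain, NEUROD1 is a basic helix-loop-helix protein, MAFA is a basic leucine zipper protein, FOXA2 is a forkhead protein and RFX6 has a winged-helix domain.

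The DNA just upstream of the starts is shown for 4 factors because their strongest regions ranged in width from 6870 to 15448 bp while these starts all had more CpG than the median promoter. RefSeq (GRCh38.p14) gave promoter sequences for 5 of the 9 genes, and PDX1, FOXA2, RFX6 and MAFA had no entry in the table used. Each line gives the 250 bases before a RefSeq start, 5′ to 3′ on the strand of the gene, with CG dinucleotides in capitals. The positions are chr2:181680518-181680767 (minus strand) for NEUROD1, chr5:51383198-51383447 (plus strand) for ISL1, chr4:84499293-84499542 (minus strand) for NKX6-1, and chr20:21522690-21522939 (minus strand) for the upstream RefSeq start of NKX2-2. This last stretch lies far upstream of the GENCODE start of NKX2-2 at chr20:21514064. It is close to the start of the noncoding gene ENSG00000289431, on the same strand and 8.585 kb upstream of that GENCODE start.
NEUROD1: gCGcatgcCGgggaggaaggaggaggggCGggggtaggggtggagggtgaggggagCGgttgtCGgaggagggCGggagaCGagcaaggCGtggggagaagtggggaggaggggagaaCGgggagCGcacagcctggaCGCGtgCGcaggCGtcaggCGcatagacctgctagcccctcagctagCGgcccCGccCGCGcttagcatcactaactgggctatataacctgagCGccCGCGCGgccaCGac
ISL1: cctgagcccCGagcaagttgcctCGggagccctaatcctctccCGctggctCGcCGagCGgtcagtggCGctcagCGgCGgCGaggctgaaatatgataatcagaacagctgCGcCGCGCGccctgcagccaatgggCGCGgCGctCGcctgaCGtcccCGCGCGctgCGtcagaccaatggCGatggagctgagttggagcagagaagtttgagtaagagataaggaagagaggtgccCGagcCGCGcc
NKX6-1: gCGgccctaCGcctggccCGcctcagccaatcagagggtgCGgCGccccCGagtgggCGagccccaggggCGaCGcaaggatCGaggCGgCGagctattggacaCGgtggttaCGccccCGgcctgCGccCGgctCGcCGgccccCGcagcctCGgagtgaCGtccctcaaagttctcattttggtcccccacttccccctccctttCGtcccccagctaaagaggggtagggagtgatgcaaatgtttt
NKX2-2: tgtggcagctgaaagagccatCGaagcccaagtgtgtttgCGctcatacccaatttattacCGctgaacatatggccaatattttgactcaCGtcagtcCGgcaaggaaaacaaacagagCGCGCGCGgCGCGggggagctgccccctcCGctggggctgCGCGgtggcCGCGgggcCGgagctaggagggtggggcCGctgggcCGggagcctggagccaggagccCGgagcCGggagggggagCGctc

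These 4 stretches held 24, 27, 23 and 22 CG dinucleotides, compared with a median of 11 over 35116 RefSeq promoters of the same length. The stretches were chosen with this composition in view, so the comparison only describes them. Those of NEUROD1 and ISL1 also hold starts of other genes, CERKL 0.148 kb and ISL1-DT 0.116 kb upstream, so their composition is shared. Their observed over expected CpG ratios were 0.863 at NEUROD1, 1.02 at ISL1, 0.810 at NKX6-1 and 0.827 at NKX2-2, compared with a median of 0.558. The most upstream RefSeq start of PAX6, preceded by chr11:31817962-31818211 (minus strand), was similar in composition with 22 CG dinucleotides and a ratio of 0.764. The letters CCAAT, searched on both strands, were present at ISL1, NKX6-1, NKX2-2 and this PAX6 start, and in 32.0% of all promoters. The letters TATAAA were not in these 5 stretches and were in 10.7% of all promoters. The other RefSeq start of NKX2-2, preceded by chr20:21512961-21513210 and inside the same region, held TATAAA, with 16 CG dinucleotides and a ratio of 0.659. Over all 14 RefSeq promoters of the 5 genes, 9 of them of PAX6, TATAAA was in 1 and CCAAT in 6, and the number of CG dinucleotides ranged from 3 to 28. The start of NKX6-1 lay in the weaker of its regions, and the other 4 starts lay inside the strongest region of their gene.

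The identity factors carried some of the broadest H3K4me3 regions of any gene. The 8 strongest regions ranged from 6870 to 23885 bp in width, with a median of 12479 bp compared with 2498 bp over all 14586 genes with a region, a ratio of 5.00. Their mean normalized counts ranged from 173 to 665, with a median of 324 compared with 49.3, a ratio of 6.56. All 8 were in the top 10% of genes by width (4856 bp or more) and by count (134 or more). At least 8 kb was covered in 7 of 8 factors, compared with 191 of all genes (1.31%), of which 13 are mitochondrial. Since the factors were named for their role with earlier results of these data known, these shares describe them and carry no test.

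**Figure D1:**
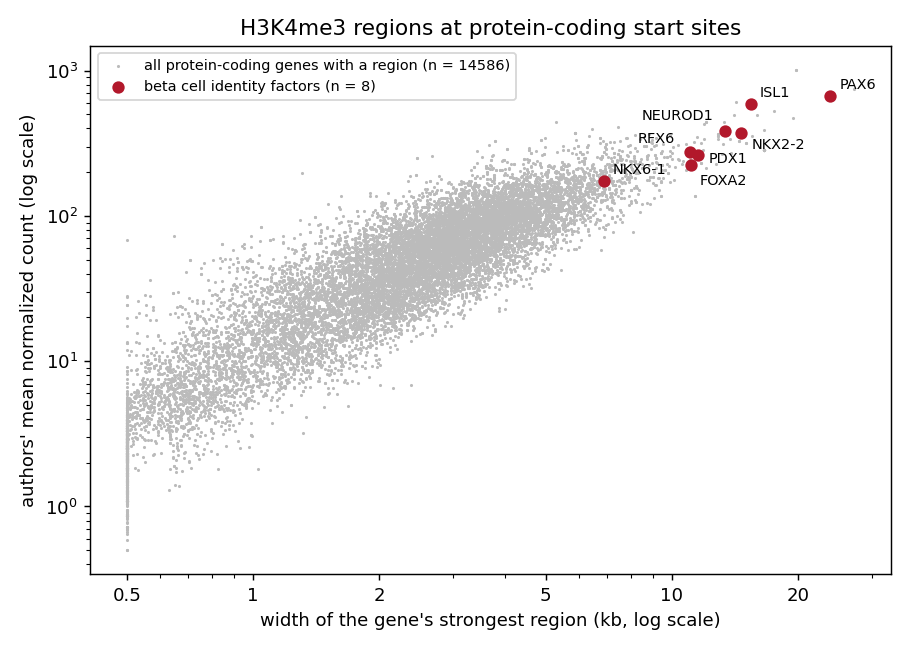
Width of each gene's strongest H3K4me3 region in kb (x axis, log scale) against the authors' mean normalized count (y axis, log scale), with grey points for 14586 protein-coding genes and red points for 8 identity factors. The red points lie at the upper right, from NKX6-1 at 6.87 kb and a count of 173 to PAX6 at 23.9 kb and a count of 665.

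PAX6, which is needed for the formation of islet endocrine cells and for the eye, had the widest region of the group. It spanned chr11:31798624-31822509 (hg38), a width of 23885 bp, with a mean count of 665. Among 12835 distinct nuclear gene regions it ranked 2 by width, after that of MEIS2 (27234 bp), and 3 by count. The region extended 11.2 kb upstream and 12.7 kb downstream of the canonical start and contained all 45 annotated protein-coding start sites of the gene. It covered 57.0% of the canonical transcript and 43.2% of its coding sequence, so the 3′ part of the gene lay outside. The long noncoding RNA PAUPAR and the protein-coding locus ENSG00000285283 also start inside it, and their reads cannot be separated from those of PAX6.

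ISL1, a LIM-homeodomain factor of all islet endocrine cells and of motor neurons, combined a broad region with the highest density. Its region at chr5:51379401-51394849 was 15448 bp wide with a mean count of 588, which ranked 9 by width and 5 by count. The signal per kb was 38.1, which made ISL1 the only one of the 8 factors in the top 10% of genes by density (34.9 per kb or more). The region reached 4.05 kb upstream and 11.4 kb downstream of the start and so covered the whole transcript of 11.3 kb. The start of the divergent noncoding gene ISL1-DT lay 0.116 kb upstream within the same region.

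NKX2-2 and NEUROD1 were close to each other in count and in width. NKX2-2, a homeodomain factor required for beta cell differentiation, had a region of 14606 bp at chr20:21510885-21525491 with a mean count of 372. NEUROD1, which activates the insulin promoter with its E protein partners, had a region of 13405 bp at chr2:181674336-181687741 with a mean count of 387. The order of the pair by width was the opposite of that by count, and without values per sample neither order can be set against replicate error. The NKX2-2 region lay mainly upstream, with 11.4 kb before and 3.18 kb after the GENCODE start, and the upstream RefSeq start printed above fell inside it. Of this region 11558 bp lay outside the canonical NKX2-2 transcript. The noncoding genes NKX2-2-AS1, ENSG00000289590 and ENSG00000289431 also start inside it, and their reads cannot be separated from those of NKX2-2. The NEUROD1 region was nearly centred, with 7.22 kb before and 6.18 kb after the start. Both regions covered their short genes whole. A start of CERKL, a ceramide kinase-like gene transcribed in the same direction, lay 0.148 kb upstream of NEUROD1 and shared its region.

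PDX1 and RFX6 formed a similar pair at slightly lower width. PDX1, which acts in early pancreas formation and later on the insulin gene, had a region of 11552 bp at chr13:27915168-27926720 with a mean count of 260. It covered all 6.31 kb of the transcript and the start of the noncoding gene PLUT, 2.70 kb upstream. RFX6, needed for islet cell differentiation and for insulin secretion, had a region of 11077 bp at chr6:116874320-116885397 with a mean count of 276. RFX6 is a long gene of 54.9 kb, and its region covered 14.9% of the transcript and 20.3% of the coding sequence, from 2.92 kb upstream to 8.16 kb downstream of the start. Its sequence had a GC content of 37.2%, at percentile 1.80 of all gene regions, and the lowest CpG ratio of the 8 factors (0.346).

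FOXA2 and NKX6-1 had domains that the deposited regions split near the start. FOXA2, a pioneer factor of endoderm, had its strongest region at chr20:22573404-22584515, 11111 bp wide with a mean count of 223. The canonical start lay 57 bp outside this region, in a gap of 559 bp. Across the gap lay a region of 1029 bp (chr20:22585074-22586103) that held the other annotated start, with a mean count of 68.9 but a density of 67.0 per kb compared with 20.1 per kb in the wide region. The last of its 3 regions was weak (chr20:22586631-22587808, 1177 bp, mean count 14.9). The wide region covered the whole coding sequence of FOXA2 and the start of the noncoding gene LINC00261, 5.93 kb downstream. Of its 11111 bp, 7593 bp lay outside the canonical FOXA2 transcript, and reads of LINC00261 cannot be separated from those of FOXA2.

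NKX6-1, a homeodomain factor that marks beta cells among mature islet cells, had the narrowest and weakest main region of the 8. It measured 6870 bp at chr4:84490739-84497609 with a mean count of 173, and ranked 300 by width and 503 by count among the 12835 distinct nuclear gene regions. This main region held 1 of the 2 annotated protein-coding starts of the gene. The canonical start lay 1683 bp away, inside a region of 2446 bp (chr4:84498245-84500691) with a mean count of 75.9 and a density of 31.0 per kb. Between them was a gap of 636 bp, and 619 of the 1101 coding bases of NKX6-1 fell in it. When regions at most 1 kb apart were joined, NKX6-1 reached 9952 bp with a summed mean count of 249, and FOXA2 reached 14404 bp with 307. Joining also widened NKX2-2 to 21625 bp, RFX6 to 16509 bp, PAX6 to 25686 bp and PDX1 to 13268 bp. ISL1 and NEUROD1 did not change.

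**Figure D2:**
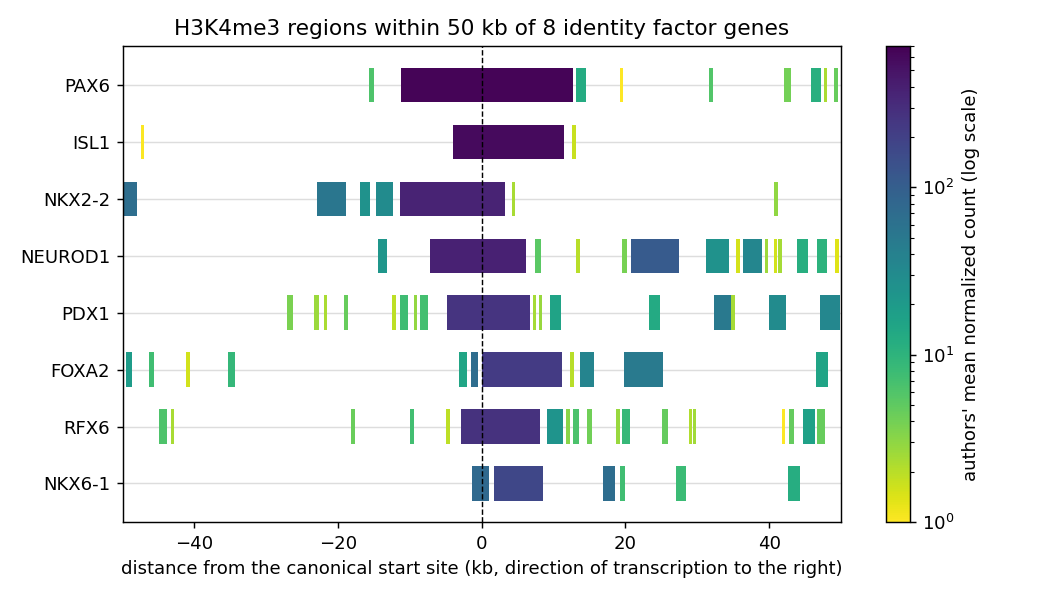
H3K4me3 regions within 50 kb of the canonical start (x axis, kb, transcription to the right) of 8 identity factors, ordered by width and coloured by the authors' mean normalized count (log scale). The strongest region touches or flanks the start in each row, and FOXA2 and NKX6-1 show a gap beside it.

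MAFA, a basic leucine zipper factor that activates insulin in mature beta cells, had no region within 2 kb, nor within 5 kb, of its start. The nearest region was 7.95 kb away, 731 bp wide and weak (mean count 3.99). The regions used here may not be the complete set, so MAFA having none says nothing of H3K4me3 at its start, which is not analysed here.

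A count sums the reads over a whole region, so the factors differed less once width was divided out. Expressed per kb, the 8 regions ranged from 20.1 for FOXA2 to 38.1 for ISL1, a ratio of 1.90, while widths varied 3.48-fold and counts 3.84-fold. The median density was 25.3 per kb compared with 19.0 over all genes, a ratio of 1.33. All 8 were above the median of all genes, and 6 of 8 were above the median of the genes on their own chromosome, PDX1 (22.5 per kb against 22.6) and FOXA2 (20.1 against 23.0) being below. Across the 14586 genes width and count shared most of their order (Spearman's rho 0.874), while width and density did so less (0.474). Genes are not independent replicates, and count, width and density come from the same reads, so both values are descriptions.

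**Figure D3:**
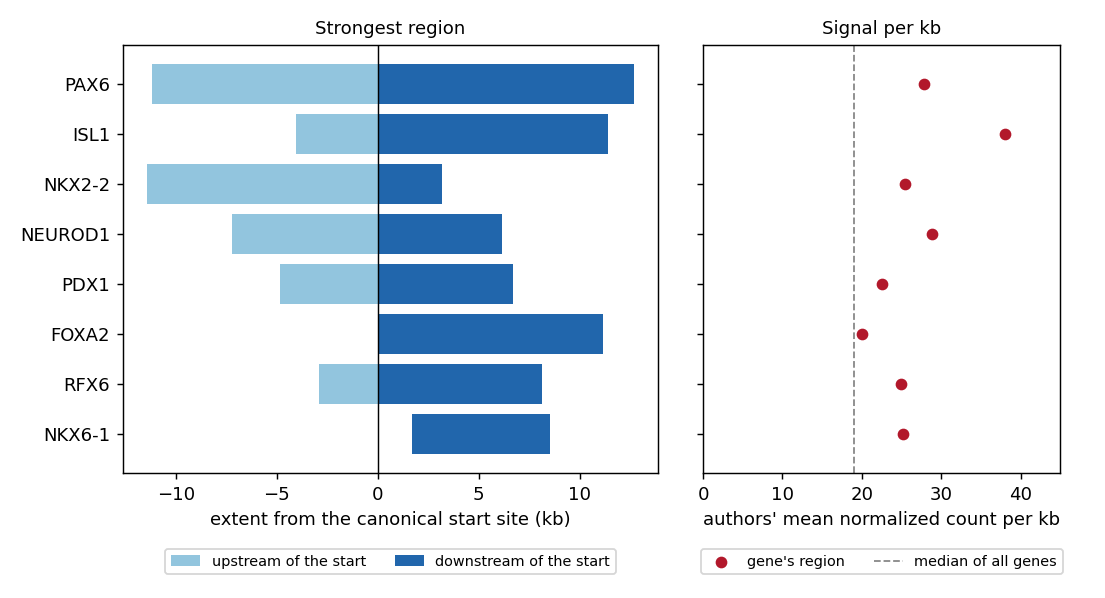
Left, extent of the strongest region upstream (light blue) and downstream (dark blue) of the canonical start in kb; right, authors' mean normalized count per kb (red points), with the median of all genes dashed at 19.0. NKX2-2 reaches furthest upstream at 11.4 kb, PAX6 furthest downstream at 12.7 kb, and ISL1 has the highest density at 38.1 per kb.

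The regions spread in different directions and over different gene parts. In 6 of 8 factors the region crossed the canonical start, and for FOXA2 and NKX6-1 it lay wholly downstream. The coding sequence was covered whole in 5 factors (PDX1, NKX2-2, NEUROD1, ISL1 and FOXA2), whose transcripts are 11.3 kb or shorter. NKX6-1 is also short, with a transcript of 7.31 kb, but 43.8% of its coding sequence was covered. Starts of other annotated genes lay inside the region of 6 of 8 factors, and RFX6 and NKX6-1 had none.

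The strongest region held a large share of the H3K4me3 signal near each gene. It made up 99.5% of the summed mean counts within 50 kb of the start for ISL1 and 93.3% for PAX6. The share was 72.0% for RFX6, 67.2% for NKX2-2, 62.2% for NEUROD1 and 58.7% for PDX1. It was lowest where the regions were split near the start, at 50.2% for NKX6-1 and 50.0% for FOXA2. NEUROD1 had the strongest separate neighbour, a region of 6771 bp with a mean count of 109 centred 24.1 kb downstream of the start.

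In median base composition the 8 regions were close to all genes but above other genes with broad regions. Their median GC content was 50.2% compared with 51.4% over all genes, and their median CpG ratio was 0.595 compared with 0.590, with 4 of 8 above that value. The highest ratios were those of NKX2-2 (0.666) and NKX6-1 (0.664), and the lowest after RFX6 was that of ISL1 (0.477). Other genes with a region of at least 8 kb, counted without the sharers of the factors' regions and the mitochondrial genes (169 genes), had a median GC content of 43.1%, a median ratio of 0.435, a median count of 243 and a median density of 24.8 per kb.

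Relatives of the factors had regions of lower mean count. For each of the 8 factors with a region, no listed member of the same gene family exceeded it in mean count. The factor was 59.3 times as high as the strongest relative for NKX2-2 (NKX2-4, mean count 6.27), 14.8 times for NEUROD1 (NEUROG2, 26.2) and 13.5 times for ISL1 (LMX1B, 43.5). For NKX6-1 (NKX6-3, 20.8), PAX6 (PAX4, 80.5) and PDX1 (CDX2, 33.7) the ratios were 8.32, 8.26 and 7.72. PAX4 acts in beta cell specification and CDX2 in the intestine. The smallest ratios were 2.82 for RFX6 against RFX2 (97.7) and 2.12 for FOXA2 against FOXA3 (105). The next relatives were NKX2-3 (3.00), NEUROG1 (8.57), LHX4 (33.7), PAX5 (66.4), GSX1 (19.2), RFX5 (82.8) and FOXA1 (2.98). Of the 50 relatives, 34 had a region, with a median width of 1536 bp and a median count of 18.6. Counts rise with width, and per kb the order was reversed for FOXA3 (34.8) against FOXA2 (20.1). It was also reversed for RFX5 (43.4) against RFX6 (24.9). For the other factors with a region, no listed relative was higher per kb.

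Other gene lists also held broad regions. The top 10% of all genes by width included 9 of the 26 other islet transcription factors with a region, 7 of 24 beta cell effector genes and 5 of 15 housekeeping genes. Of 28 other islet transcription factors 26 had a region, with a median width of 4034 bp, and 2 of them reached 8 kb. ST18 had a mean count of 385 and PROX1 one of 318. All 24 beta cell effector genes had a region, with a median width of 3132 bp, and 2 reached 8 kb. The strongest of these were SLC30A8, the zinc transporter of insulin granules (19456 bp, mean count 473), the prohormone convertase gene PCSK2 (341) and the calcium-sensing receptor gene CASR (231). Housekeeping genes, 15 of 15 with a region, had a median width of 3780 bp, and B2M (242) and TBP (205) had high mean counts among them.

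The label of the cells was checked against marker genes, for which a region shows only that H3K4me3 was detected near a start. Of all protein-coding genes 74.0% had a region, with a median count of 49.3. Of 10 beta cell markers, which include the factors PDX1, NKX6-1 and MAFA, 9 had a region, with a median count of 60.3. MAFA had none among the regions used here. The insulin gene INS had a modest region of 1765 bp with a mean count of 24.7, and IAPP one of 918 bp with 6.94. Of 10 markers of other islet cells 8 had a region (median count 28.5), led by LEPR (135), IRX1 (103) and IRX2 (61.8). Of 14 exocrine and duct markers 9 had one (median count 4.81), led by NR5A2 (86.8), MUC1 (58.9) and KRT19 (24.1). Of 20 transcription factors of other lineages 9 had one (median count 14.1), led by EBF1 (165), PAX5 (66.4) and MYOD1 (19.7). INS and IAPP were below LEPR, IRX1 and IRX2 in count, while SLC30A8 and PDX1 were above them. The median of the beta cell markers was also close to that of all genes, so these counts do not settle the cell type.

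**Figure D4:**
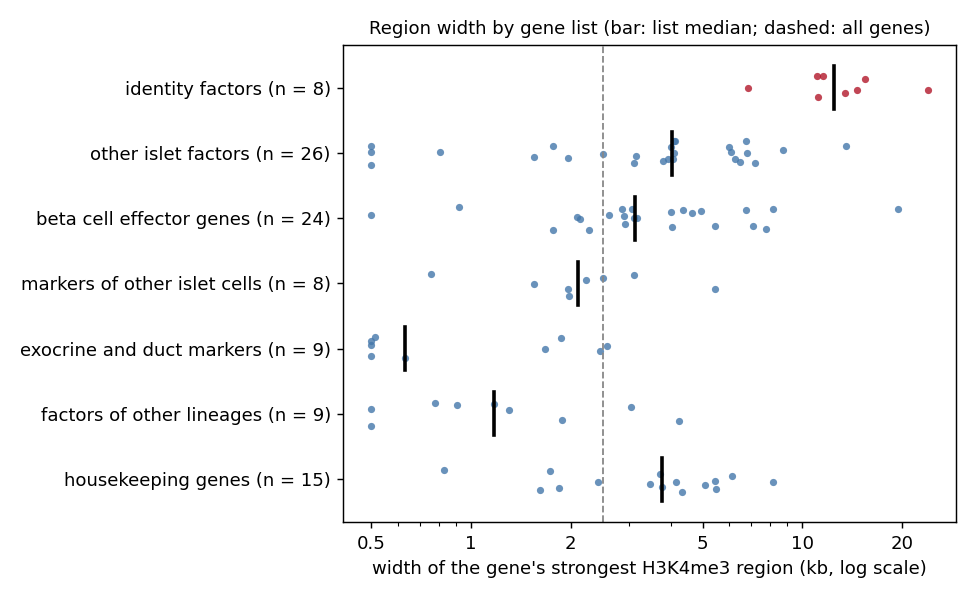
Width of each gene's strongest H3K4me3 region in kb (x axis, log scale) for the identity factors (red) and the comparison lists (blue), each point 1 gene, with black bars at list medians and the median of all genes (2498 bp) dashed. The identity factors lie between 6870 and 23885 bp with a median of 12479 bp, and the medians of the other lists lie between 633 and 4034 bp.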

How the data were processed

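MINT-ChIP reads of H3K4me3 were sequenced as pairs, aligned by the authors to hg38 with Bowtie2 and processed with samtools, and peaks were called with HOMER. How peaks were merged, reads counted and duplicates treated is not given in the sources used here. The deposited signal of a region is the authors' mean over samples of counts normalized with DESeq2, for 97545 regions. A mean pools both states and rises with region width, and at the 37.1% of regions exactly 500 bp wide the width is the smallest that occurs. The 5 other columns hold the authors' own comparison (log2 fold change, its standard error, statistic, p-value and adjusted p-value) and were not used, so no change with senescence is given. The labels give the tamoxifen dose as 1 mM and the paper's methods give it in µM. Whether replicates were separate cultures is not stated in the labels.

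Widths are end minus start, with coordinates as deposited. Chromosome names and lengths were checked against the hg38 genome. Starts were those of protein-coding transcripts of protein-coding genes in GENCODE 44, and the canonical transcript gave distances. All 9 factors were named, with the 2 strongest relatives of each and the 3 strongest genes of each other list. A few genes that this rule names are not reported here. INS, IAPP and MEIS2 and the neighbouring genes were named after their values were seen. The factors and lists were chosen with earlier results of these data known. Ranks used distinct regions outside the mitochondrial genome. No test was run. Python 3.11.15 with numpy 2.4.6, pandas 2.3.3 and matplotlib 3.10.9 was used, and the linking of regions to genes was tested on simulated data.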

Additional observations from a re-analysis of the deposited data

How the results depend on the processing

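Of 50 values recomputed under 10 alternatives (8 planned and 2 chosen after seeing the data), 44 equalled the reported value, many by construction since the setting could not reach them (width when counting per kb, or medians under other reference genes). Counted per kb of region, the factors' median became 25.3 and 1 of 8 was in the top 10% by signal. When regions at most 1 kb apart were joined (chosen after seeing the data), their median count was 348 and their median width 14926 bp. Taking the region nearest a start left 7 of 8 in the top 10% by width and by count, FOXA2 falling to its region of 1029 bp. Both NKX6-1 regions hold a start, and the one with the higher mean was kept. The region with its canonical start (2446 bp, mean count 75.9) would be below both top 10% cuts. Windows of 1 or 5 kb, and starts of all transcripts (also chosen after seeing the data), left the number of factors with a region at 8. No paired analysis was possible because the result comes from no test and the mean holds no value per sample, and for the same reason no replicate could be left out. The depth of each sample is unknown.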
